A study of Mus musculus with 9 samples.

Results

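The genes described here encode the machinery that makes the programmed DNA double-strand breaks of meiosis: Spo11, Rec114, Mei4, Mei1, Ankrd31, Hormad1 and Prdm9. They are 7 of the 32285 genes listed in single cell libraries of mouse testis, and were taken by gene symbol. All 7 were among the 26567 genes detected in over 15 of the retained cells. Their unique molecular identifiers (UMIs, each of which counts 1 captured transcript) were summed per mouse within spermatogonia (SG) and within preleptotene (pL), leptotene (L), zygotene (Z) and pachytene (P) spermatocytes, and were compared across stages and across 3 genotypes.

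Meiotic recombination starts when SPO11, a protein related to topoisomerases, cuts DNA along the chromosome axes in L and Z spermatocytes, and the breaks are repaired while homologous chromosomes pair. REC114, MEI4 and their partner IHO1 assemble on the axes and are needed for SPO11 to cut, as are MEI1 and, in part, ANKRD31, which binds REC114. HORMAD1 is an axis protein that helps to recruit them, and PRDM9 is a histone methyltransferase whose zinc fingers choose where breaks fall in the mouse. Mice that lack Spo11, Rec114, Mei4 or Mei1 arrest in meiosis without breaks.

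Whole testes were collected on postnatal day 24 (PND24) from 4 Control, 2 NELF-B cKO and 3 TDP-43 cKO mice on a C57BL/6 background, backcrossed to C57BL/6 J, with 1 library per mouse. NELF-B is a subunit of the complex that holds RNA polymerase II in a paused state near promoters, and TDP-43, encoded by Tardbp, is an RNA- and DNA-binding protein. Each cKO carried 1 floxed and 1 null allele of Nelfb or Tardbp together with the Stra8-iCre transgene, which deletes floxed alleles in SG from postnatal day 4, and excision may still be incomplete at the age sampled. Controls were littermates or other mice, and the sample labels do not give their alleles. The deposited name of the library of Control replicate 2 carries the mark "het", without saying of which gene. Library names also share codes between mice of different genotypes, which may mark litters, but the labels do not explain them, so relatedness entered no test. The 2 cKO were compared with the same 4 Control mice. In all SG to Z cells of a mouse, before any cell was removed, Nelfb stood at 73.3, 60.8, 62.3 and 66.5 CPM (counts per 1000000 UMIs) in Control, at 4.23 and 4.91 in the NELF-B cKO and at 63.5, 60.6 and 60.0 in the TDP-43 cKO. Tardbp stood at 125, 113, 118 and 142 CPM in Control, at 92.3 and 95.0 in the NELF-B cKO and at 34.8, 44.6 and 46.7 in the TDP-43 cKO. UMIs come from the 3′ end, outside the exon of Tardbp that is deleted, so they do not report its deletion directly. In P spermatocytes, also before removal, the 2 TDP-43 cKO mice with such cells held 182 and 201 CPM of Tardbp, within the range of the Control mice (184 to 214) or just under it. Following the published procedure, germ cells of a cKO mouse that held any transcript of its deleted gene were dropped. This took 437 of 662, 450 of 812 and 548 of 938 SG from the TDP-43 cKO mice but only 16 of 588 and 37 of 397 from the NELF-B cKO mice.

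The promoters are shown first as a description, and the letters of known meiotic regulators are found in only some of them. Whether these letters go with the stage patterns below was not tested. Each run is the RefSeq promoter (build GRCm38.p6) from 250 bases before to 50 bases after the annotated start, written 5′ to 3′ on the strand of the gene. Capitals mark matches, on either strand, to the STRA8/MEIOSIN motif CNCCTCAG, the E-box CACGTG, the MYB core CNGTTA and the E2F core TTCCCGC. Of 32851 promoters of this length, 7.94% held the first, 7.15% the second, 23.3% the third and 4.60% the last. A match describes letters and is not evidence of binding.
Prdm9, chr17:15564305-15564604, minus strand: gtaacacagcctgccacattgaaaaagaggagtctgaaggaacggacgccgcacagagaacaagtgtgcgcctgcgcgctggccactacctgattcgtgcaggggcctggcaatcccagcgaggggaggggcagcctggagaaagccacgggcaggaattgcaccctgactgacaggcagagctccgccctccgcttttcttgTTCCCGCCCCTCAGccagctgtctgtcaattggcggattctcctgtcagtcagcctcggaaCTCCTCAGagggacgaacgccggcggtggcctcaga
Hormad1, chr3:95559427-95559726, plus strand: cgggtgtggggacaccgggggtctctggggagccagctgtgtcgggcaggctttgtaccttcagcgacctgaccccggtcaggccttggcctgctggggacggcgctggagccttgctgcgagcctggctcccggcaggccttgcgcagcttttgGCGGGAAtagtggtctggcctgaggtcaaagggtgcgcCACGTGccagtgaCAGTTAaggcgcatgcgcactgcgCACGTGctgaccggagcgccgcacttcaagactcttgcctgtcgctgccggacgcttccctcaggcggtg
Rec114, chr9:58741510-58741809, minus strand: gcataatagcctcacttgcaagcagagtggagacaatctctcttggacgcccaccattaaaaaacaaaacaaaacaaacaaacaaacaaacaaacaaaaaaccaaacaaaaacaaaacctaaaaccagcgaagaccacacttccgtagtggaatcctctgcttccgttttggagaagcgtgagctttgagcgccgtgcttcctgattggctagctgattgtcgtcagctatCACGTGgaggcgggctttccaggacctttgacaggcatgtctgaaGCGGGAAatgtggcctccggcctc
Mei4, chr9:81863420-81863719, plus strand: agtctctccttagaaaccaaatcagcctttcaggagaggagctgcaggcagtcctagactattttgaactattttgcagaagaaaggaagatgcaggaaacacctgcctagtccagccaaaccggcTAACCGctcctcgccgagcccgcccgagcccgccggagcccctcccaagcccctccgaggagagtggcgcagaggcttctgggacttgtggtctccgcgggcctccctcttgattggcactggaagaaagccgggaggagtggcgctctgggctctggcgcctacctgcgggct
The Prdm9 promoter held 2 matches to the STRA8/MEIOSIN motif, starting 41 bases before and 15 bases after the start, and the first of them shared 1 base with an E2F core. The Hormad1 promoter held 2 E-boxes, 57 and 20 bases before the start, with a MYB core between them and an E2F core further upstream. The Rec114 promoter held 1 E-box and 1 E2F core, and that of Mei4 a single MYB core. The tabulated start of Rec114 lay 2405 bases inside the GENCODE gene. No match to these letters lay in the windows of Ankrd31 (chr13:96748043-96748342) and Mei1 (chr15:82082226-82082525, whose start lay 12480 bases inside the GENCODE gene), or in the other Prdm9 window (chr17:15563282-15563581). Spo11 had no entry.

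By the GENCODE vM21 annotation of the same build, Spo11 (ENSMUSG00000005883) lies at chr2:172977700-172993576, Mei1 (ENSMUSG00000068117) at chr15:82069996-82126814, Hormad1 (ENSMUSG00000028109) at chr3:95559677-95587671 and Prdm9 (ENSMUSG00000051977) at chr17:15543079-15564354. Rec114 (ENSMUSG00000074269, chr9:58652850-58743964) overlaps Gm20620 on its own strand. Mei4 (ENSMUSG00000043289, chr9:81863670-82206007) overlaps Gm37837 and Gm15896, and Ankrd31 (ENSMUSG00000109561, chr13:96748272-96910039) overlaps Gm27792, so reads in the shared parts could have been left uncounted for these 3 genes.

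Libraries held 119203347 to 159407373 UMIs, and 45132 barcodes passed the filter of the study. Each of the 36 pairs of libraries shared 1 to 24 retained barcodes. Of 31 clusters, 22 could be named from marker genes that excluded the members. SG to P together held 12222 cells before cells were removed from the cKO mice for a transcript of the deleted gene. Control mice gave 275 to 398 SG, 166 to 312 pL, 51 to 116 L, 169 to 438 Z and 112 to 336 P cells each. The P cells of NELF-B cKO replicate 1 held a median of 2138 UMIs, against 17252 to 41242 in the Control mice. The TDP-43 cKO mice gave 0, 67 and 82 P cells, of which that removal dropped 60 and 74, and the 7 and 8 that were kept were fewer than the 10 per mouse needed for a test. The Z group was a single cluster (cluster 4) whose 10 leading genes held none of its own markers and 1 of the L list, Ccnb3, so its name rests on marker scores over the whole list. The weaker pL cluster (cluster 8, 1901 cells) had 3 of 6 pL markers at 2-fold and a marker score of 1.403. The other pL cluster (cluster 14, 1237 cells) had 6 of 6 and a score of 2.002. Leading genes of the L cluster included Prdm9 and those of 1 pL cluster included Mei1, although neither gene was used to name clusters or to align the cells.

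In Control testis the 7 genes did not share one time course. Rec114 stood highest in pL and was already near that level in SG, Mei4 and Mei1 stood high in pL and L, Spo11, Ankrd31 and Prdm9 stood highest in L, and Hormad1 stood highest in Z. These are descriptions without a test, because stages were defined by expression in the same cells. In clusters made without integration the highest stage became Z for Spo11 and L for Mei1, and stayed as given for the other 5 members.

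Spo11, the catalytic subunit, stood at 148, 149, 138 and 172 CPM in L of the 4 Control mice (152 ± 14.2, SD, n = 4). All 4 values lay above every value in other stages. Levels in P (97.9 ± 5.39), Z (97.4 ± 14.4) and diplotene (88.2 ± 8.82) overlapped each other, and round spermatids stood at 44.2 ± 1.79 CPM. In pL and SG it stood at 17.9 ± 3.76 and 13.9 ± 1.44 CPM, which overlapped. Sertoli-like cells, somatic cells that should lack the gene, stood at 32.6, 25.4, 17.5 and 16.2 CPM, above all SG values and overlapping pL (14.4 to 23.0 CPM). Barcodes of 1 to 100 UMIs, which carry free RNA rather than cells, held 62.2, 80.4, 56.3 and 71.2 CPM of Spo11. With each cell thinned to 2000 UMIs, 16.0% to 26.7% of L cells held a Spo11 UMI (52.2% to 62.1% unthinned), against 1.51% to 4.19% of SG (22.6% to 29.5% unthinned) and 3.03% to 10.4% of Sertoli-like cells (11.8% to 15.9% unthinned). Median depths in these mice were 6990 to 7709 UMIs per L cell, 16678 to 25601 per SG and 2010.5 to 2533 per Sertoli-like cell, and thinning left out 22 L, 4 SG and 477 Sertoli-like cells. Low expression of Spo11 in SG and pL and background from free RNA were not told apart by these values.

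Rec114 stood at 66.9, 78.6, 89.9 and 72.2 CPM in pL of the Control mice (76.9 ± 9.90, SD, n = 4) and at 55.5, 57.3, 62.8 and 66.1 CPM in SG (60.4 ± 4.87). The highest SG value lay just under the lowest pL value. It was lower in L at 20.7 ± 7.63 CPM, when Spo11 was at its highest. In Z it stood at 8.14 ± 1.34 CPM, which overlapped the Sertoli-like cells and free RNA (7.18 to 12.2 CPM). Mei4, whose product binds REC114, stood at 81.0, 85.0, 87.3 and 96.4 CPM in L, and pL (45.2 to 90.2 CPM) overlapped both L and SG (31.8 to 50.1 CPM). It was next to absent after L, with 3.54 ± 1.32 CPM in Z and 15 UMIs in all P cells of the 4 mice.

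Mei1, needed for break formation, stood at 101, 153, 151 and 162 CPM in pL and at 107, 82.2, 104 and 103 CPM in L of the Control mice. These 2 stages overlapped, and SG stood lower at 41.4 ± 2.28 CPM. From Z to round spermatids its means lay between 2.90 and 5.10 CPM, at the level of Sertoli-like cells. Ankrd31 stood at 603, 751, 811 and 799 CPM in L, about 2.06 times the mean in Z (359 ± 45.3 CPM), and L did not overlap any other stage. Its levels in Z, P (307 ± 46.5), pL (221 ± 57.3) and SG (186 ± 35.4) overlapped from neighbour to neighbour.

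Hormad1, the axis protein, stood higher at each step of the early stages without overlap between them, from 61.2 to 70.7 CPM in SG to 174 to 270 CPM in pL, 467 to 501 CPM in L and 933 to 1258 CPM in Z of the Control mice. P stood at 773 ± 112 CPM, and its highest mouse (922 CPM) lay just under the lowest Z value. SG was at the level of Sertoli-like cells and under that of free RNA (107 to 198 CPM). Prdm9 had a narrow window, with 212, 241, 239 and 217 CPM in L, 63.8 to 102 CPM in pL, and 9.39 to 18.2 CPM in Z. Its mean in Z was 6.43% of that in L, while Hormad1 in L was still at 43.3% of its own mean in Z.

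**Figure D1:**
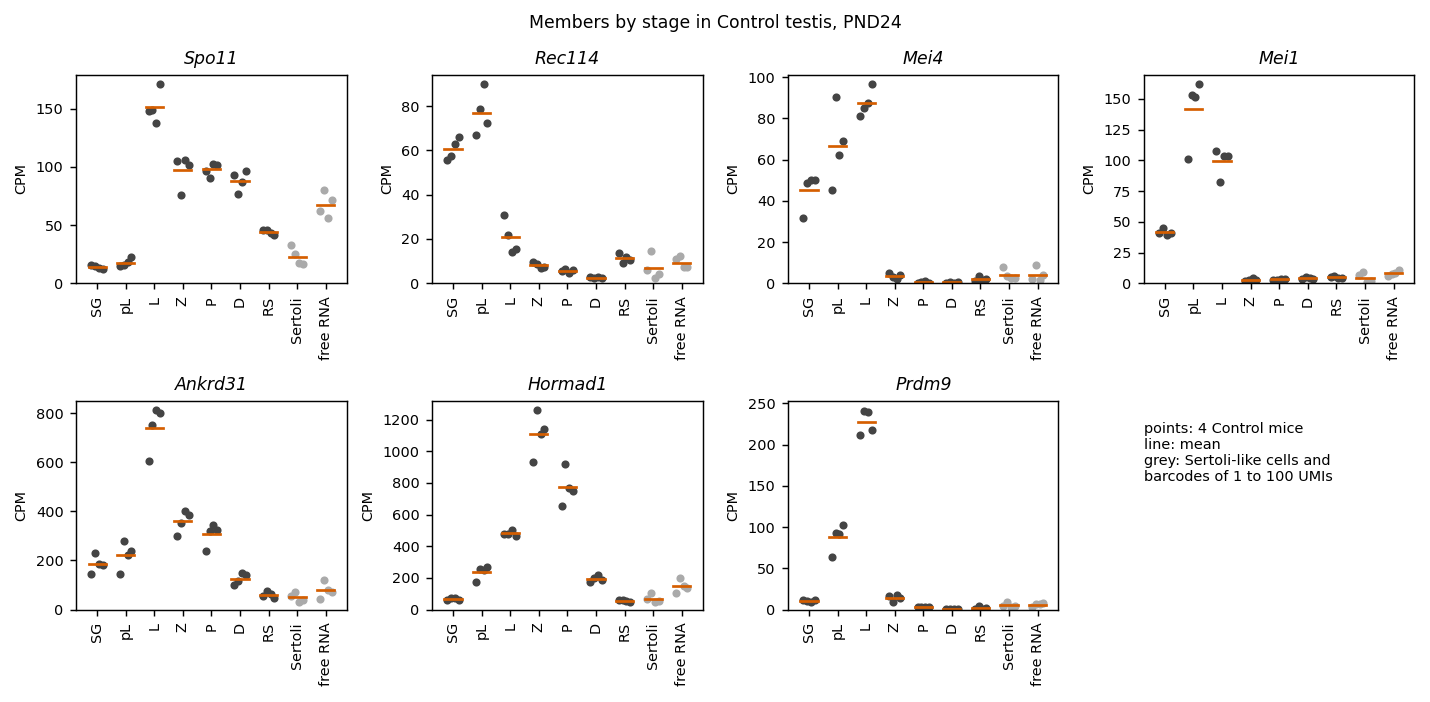
Level of each gene (CPM, linear axis from 0) by stage (D, diplotene; RS, round spermatids) in Control testis, with 1 point per mouse, a line at the mean of 4 mice, and grey points for Sertoli-like cells and for free RNA (barcodes of 1 to 100 UMIs). Rec114 is high in SG and pL, Prdm9 and Ankrd31 peak in L, Hormad1 peaks in Z, and Spo11 in SG and pL lies within or under the range of the grey points.

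Over the 28 points of 4 Control mice and 7 germ cell stages, which share libraries and depth within a mouse, Pearson's r of log2(CPM + 1) was 0.95 between Mei4 and Mei1, 0.88 between Mei4 and Prdm9 and 0.86 between Rec114 and Mei4, but -0.75 between Spo11 and Rec114 and -0.03 between Spo11 and Prdm9. Among 16347 genes with at least 5 CPM in the mean of a stage, the patterns most like that of Prdm9 were those of Eml5 (r = 0.99), Eaf2 (0.98) and Gm4969 (0.98), the last of which was itself a marker used to name pL. Swap70 (0.98), Fam90a1b (0.98) and Lrig1 (0.98) were most like Mei4, and Kif23 (0.98), Myrf (0.97) and Pgm2l1 (0.96) most like Mei1. For Rec114 these were Gm15107, Cdk5 and Cd81 (0.97 each), for Ankrd31 Ercc6l2, Senp8 and Zbtb37 (0.97 each), and for Hormad1 Pja2, Hectd2 and Hnrnph3 (0.97 each). For Spo11, 1700028K03Rik (0.96), Spdya (0.94) and 3830406C13Rik (0.94) were nearest.

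The next question was whether the genes differ by genotype within a stage. A stage is 1 cluster (L, Z and P) or several clusters joined (3 for SG, 2 for pL), and the levels of stage markers inside it also differed between genotypes, as given beside the results. In NELF-B cKO L spermatocytes Spo11 fell by 1.21 on the log2 scale and Ankrd31 by 0.60, while Mei1 rose by 0.66. These were 3 of the 7 members, and 7.55% of all 9178 genes tested in L were called in this comparison. None of the members was called by edgeR in SG, pL or Z (7 tested in each) or in P (6 tested), where 0.0331%, 0.443%, 8.7% and 0.52% of all genes were called. At an unadjusted p under 0.05 there were 2 members in SG, 3 in pL, 1 in Z and 0 in P, and DESeq2 called 0 in each of these stages. Percentages of all genes are given for edgeR's adjusted p only, here and below. Counts at an unadjusted p or by DESeq2 are given without the share of all genes, so they are not read as results about the members. Tests are edgeR's quasi-likelihood test on summed UMIs with Benjamini-Hochberg adjustment over all genes, two-sided, and called means an adjusted p under 0.05.

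**Figure D2:**
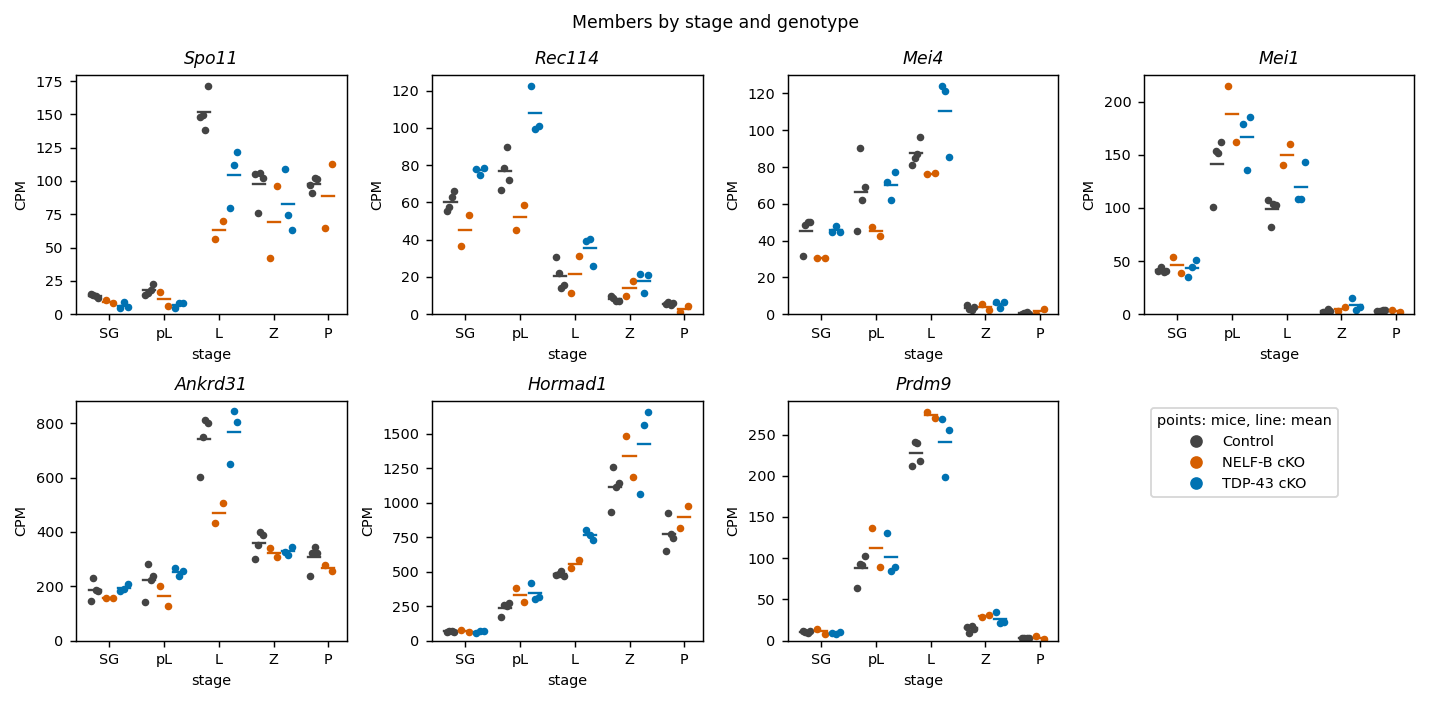
Level of each gene (CPM, linear axis from 0) by stage for 4 Control, 2 NELF-B cKO and 3 TDP-43 cKO mice, with 1 point per mouse and a line at the group mean, where a mouse needed 10 cells of a stage. In L, both NELF-B cKO points lie under all Control points for Spo11 and Ankrd31, and all 3 TDP-43 cKO points lie above them for Hormad1.

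In L, Spo11 stood at 56.7 and 70.1 CPM in the NELF-B cKO mice, against 148, 149, 138 and 172 CPM in Control. Both cKO mice lay far under the lowest Control mouse, and the groups did not overlap. The level was 2.31-fold lower (log2 fold change -1.21 ± 0.19 SE, edgeR adjusted p = 0.00460). Over 17 alternative analyses the log2 fold change lay between -1.31 and -0.85 and the adjusted p between 1.27e-05 and 0.0737, and 15 of them kept the call. It was lost, for example, in clusters made without integration (adjusted p = 0.0537). With cells thinned to 2000 UMIs, 8.84% and 10.0% of L cells of the NELF-B cKO mice held a Spo11 UMI (29.8% and 42% unthinned), under the range of the Control mice given above. Free RNA held 53.0 and 16.2 CPM of Spo11 in these mice and Sertoli-like cells 15.6 and 2.31 CPM, both lower than in Control as well, and the part of free RNA in the difference was not tested.

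Outside L, Spo11 did not pass the test in NELF-B cKO mice. In Z the values were 42.5 and 96.6 CPM against 75.9 to 106 CPM in Control (log2 fold change -0.54 ± 0.28 SE, adjusted p = 0.238), and the 2 cKO mice lay on either side of the lowest Control mouse. With 1 mouse left out the Z difference lay between -1.29 (adjusted p = 0.0271, without NELF-B cKO replicate 2) and -0.11 (0.813, without replicate 1), where the lone cKO mouse is assumed to vary like the other groups. In P the values were 65.0 and 113 CPM against 90.8 to 102 CPM.

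Ankrd31 stood at 433 and 506 CPM in L of the NELF-B cKO mice, under all 4 Control values (603 to 811 CPM). Its log2 fold change was -0.60 ± 0.14 SE with an adjusted p of 0.0235. Of 17 alternatives 11 kept this call, with adjusted p between 0.000583 and 0.166, and it was lost without Control replicate 3 (0.0630) or 4 (0.0688) and without NELF-B cKO replicate 1 (0.109) or 2 (0.0562). The Ankrd31 call was also lost in clusters made without integration and with the replicate block. Mei1 stood at 140 and 160 CPM, above the Control values of 82.2 to 107 CPM (log2 fold change 0.66 ± 0.17 SE, adjusted p = 0.0336). Only 6 of 17 alternatives kept the call of Mei1 (adjusted p 0.0268 to 0.246), and it was lost without Control replicate 2 (0.0620), 3 (0.0804) or 4 (0.0777) and without NELF-B cKO replicate 1 (0.0733) or 2 (0.112). The Mei1 call was also lost by DESeq2, with only the groups compared, with the replicate block and with removal in Control too. Thinned cells and clusters made without integration lost it as well. The cluster holding L cells had a summed level of the 6 measured pL markers of 1241 and 1218 CPM in the NELF-B cKO against 966 to 1011 CPM in Control, and of the 6 L markers of 2994 and 4000 CPM against 4000 to 4519 CPM. Stra8 was called higher (1 of 5 pL markers tested), and Emc7, 1 of the 7 Z markers, was called lower. The 10 SG markers summed to 94.8 and 83.1 CPM against 51.8 to 60.3 CPM, with none of 3 tested called and Nanos3 at 0 UMIs in the cKO. The 6 diplotene markers summed to 200.2 and 72.7 CPM against 201 to 307 CPM and the 6 P markers to 640.5 and 440.1 CPM against 639 to 794 CPM, with none called. Of the 6 Leydig cell markers, which sum to 100.1 and 88.3 CPM in cKO L cells against 14.6 to 31.0 CPM in Control, 2 of 4 tested were called higher and none was at 0 UMIs in either group. The part of these lists in the L results was not tested.

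The other members did not pass in L. Hormad1 stood at 528 and 583 CPM against 467 to 501 CPM (log2 fold change 0.27 ± 0.12 SE, adjusted p = 0.179) and Prdm9 at 277 and 270 CPM against 212 to 241 CPM (0.33 ± 0.15 SE, adjusted p = 0.192), both without overlap. Mei4 stood at 76.2 and 76.6 CPM, under the Control values of 81.0 to 96.4 CPM (-0.14 ± 0.19 SE), and Rec114 at 11.5 and 31.2 CPM, around the Control values. Earlier, in pL, Rec114 stood at 45.4 and 58.9 CPM, under the 66.9 to 89.9 CPM of Control, with an adjusted p of 0.149 (log2 fold change -0.56 ± 0.17 SE). In SG, Mei4 stood at 30.8 CPM in both NELF-B cKO mice, just under the lowest Control mouse at 31.8 CPM (-0.55 ± 0.16 SE, adjusted p = 0.303). In Z, Prdm9 stood at 28.6 and 30.7 CPM against 9.39 to 18.2 CPM in Control (0.95 ± 0.28 SE, adjusted p = 0.0555).

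In single stages of the TDP-43 cKO mice edgeR called Hormad1, Rec114 and Prdm9. Hormad1 rose by 0.77 on the log2 scale in L (1 of 7 members, where 9.02% of all genes were called), and Rec114 and Prdm9 rose in Z (2 of 7, where 18.3% of all genes were called). With only 7 members, these counts lie near the share over all genes. In SG and pL edgeR called 0 of 7 members, beside 0.00552% and 0.0436% of all genes. In those stages 2 and 3 members had an unadjusted p under 0.05, and DESeq2 called 2 in SG (Spo11 lower, Rec114 higher) and 3 in pL (the same pair and Hormad1 higher). No share of all genes is given for these unadjusted and DESeq2 counts.

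Hormad1 stood at 804, 766 and 729 CPM in L of the TDP-43 cKO mice, against 477, 480, 501 and 467 CPM in Control. All 3 cKO mice stood far above the 4 Control mice, 1.71-fold by the fit (log2 fold change 0.77 ± 0.10 SE, edgeR adjusted p = 0.0118). Of 18 alternatives 15 kept the call, with a log2 fold change between 0.51 and 0.86 and an adjusted p between 2.27e-09 and 0.0876. It was lost without TDP-43 cKO replicate 1 (0.0876) and in clusters made without integration (0.0671). With no cell removed for a Tardbp UMI the log2 fold change was 0.72 (adjusted p = 0.00850). In pL, Hormad1 stood at 418, 301 and 319 CPM against 174 to 270 CPM (0.58 ± 0.19 SE, adjusted p = 0.127). In Z it stood at 1061, 1561 and 1659 CPM against 933 to 1258 CPM, with overlap (0.42 ± 0.16 SE, adjusted p = 0.0984), and without replicate 1, where 38 of 113 Z cells were kept after the removal, the difference was 0.60 with an adjusted p of 0.0142. In L of these mice the 6 L markers summed to 5256 to 5635 CPM and the 7 Z markers to 9960 to 10042 CPM, against 4000 to 4519 and 7697 to 8654 CPM in Control, with 1 of 6 and 2 of 7 called higher and none at 0. The 6 P markers summed to 382 to 505 CPM against 639 to 794 CPM, with 3 of 6 called lower. The 6 diplotene markers summed to 42.9 to 86.8 CPM against 201 to 307 CPM, with 3 of 6 called lower, and the 6 measured pL markers to 1061 to 1448 CPM against 966 to 1011 CPM, with Stra8 called higher (1 of 5 tested). The 7 round spermatid markers summed to 14.7 to 28.9 CPM against 67.1 to 312 CPM, with none of 6 tested called. The part of these lists in the Hormad1 result was not tested.

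In Z, Rec114 stood at 21.5, 11.5 and 21.0 CPM in the TDP-43 cKO against 9.83, 8.57, 6.86 and 7.31 CPM in Control (log2 fold change 1.17 ± 0.31 SE, adjusted p = 0.0249). Prdm9 stood at 34.7, 21.4 and 22.3 CPM against 16.6, 9.39, 18.2 and 14.4 CPM (0.83 ± 0.26 SE, adjusted p = 0.0430). Neither pair of groups overlapped. Both genes were also higher in free RNA of these mice, where Rec114 held 28.9 to 31.8 CPM against 7.18 to 12.2 CPM in Control and Prdm9 16.9 to 30.8 CPM against 3.01 to 8.08 CPM, so that free RNA lay above the Z level in all 3 mice for Rec114 and in 1 of 3 for Prdm9. Markers of earlier stages summed higher in the same Z cells. The 6 pL markers summed to 446 to 560 CPM against 391 to 399 CPM in Control, with Stra8 and Rhox13 called higher (2 of 6). The 6 L markers summed to 3147 to 3740 CPM against 2600 to 3065 CPM, with Dmc1 and Ccnb3 called higher and Meioc lower, and the 10 SG markers to 43.3 to 195 CPM against 31.9 to 36.7 CPM, with Crabp1 called higher (1 of 3 tested). Among the 7 Z markers Tex15 and Syce2 were called higher and Meiob lower. Markers of later stages stood lower. The 6 P markers summed to 853 to 1330 CPM against 1336 to 1897 CPM, with Piwil1 and Id4 called lower, and the 6 diplotene markers to 195 to 237 CPM against 294 to 392 CPM, with Ccna1, Acr and Pgk2 called lower. Of the 6 round spermatid markers tested, Acrv1 was called lower. No marker of these lists was at 0 in either group. The part of free RNA and of these lists in the 2 calls was not tested. Of 18 alternatives 9 kept the call of Rec114 (adjusted p 0.0116 to 0.304), and it was lost without Control replicate 3 (0.0625) or 4 (0.0661) and without TDP-43 cKO replicate 1 (0.0597) or 3 (0.143). The Rec114 call was also lost with no cell removed and with removal in Control too. The same held in thinned cells, without integration and with the replicate block. Only 4 of 18 kept the call of Prdm9 (0.0374 to 0.669), which without integration turned to a log2 fold change of -0.43, and it was lost without Control replicate 1 (0.0648), 2 (0.0911) or 4 (0.0990) and without any of the 3 TDP-43 cKO mice (0.0960 to 0.119). The Prdm9 call was also lost with no cell removed, with removal in Control too and in thinned cells. DESeq2, RLE normalization, the replicate block and leaving out called doublets lost it as well.

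Rec114 also stood higher before Z in the TDP-43 cKO. In SG the values were 78.2, 74.8 and 78.8 CPM against 55.5 to 66.1 CPM (log2 fold change 0.43 ± 0.12 SE, adjusted p = 0.121) and in pL 123, 99.4 and 101 CPM against 66.9 to 89.9 CPM (0.52 ± 0.14 SE, adjusted p = 0.0998). Neither stage overlapped between the groups, and neither passed the edgeR test. In L the groups overlapped for Rec114, and it was not called. With 1 mouse left out its L difference lay between 0.76 and 1.16 on the log2 scale (edgeR adjusted p 0.0928 to 0.405). Spo11 stood lower in L, at 80.1, 112 and 122 CPM against 138 to 172 CPM (-0.45 ± 0.16 SE, adjusted p = 0.0852), without overlap. Its SG values of 4.63, 9.03 and 5.28 CPM and pL values of 4.57, 8.70 and 8.63 CPM lay under those of Control (12.1 to 15.4 and 14.4 to 23.0 CPM). Sertoli-like cells (1.74, 5.50 and 7.35 CPM) and free RNA (8.45, 39.3 and 25.7 CPM) were lower too. Markers of later stages also summed lower, with none called. In SG, P markers summed to 152 to 188 CPM against 318 to 441 CPM in Control. Diplotene markers summed to 108 to 125 against 177 to 272 CPM and round spermatid markers to 13.9 to 25.1 against 40.5 to 149 CPM. In pL the same lists summed to 180 to 225, 88.5 to 100 and 9.84 to 16.8 CPM, against 371 to 544, 173 to 291 and 46.7 to 186 CPM. The part of free RNA and of these lists was not tested. Ankrd31 in L stood at 650, 846 and 806 CPM, within the Control range or just past it, with a log2 fold change of 0.14 ± 0.12 SE. Mei4 in L stood at 124, 121 and 85.5 CPM against 81.0 to 96.4 CPM (0.43 ± 0.17 SE, adjusted p = 0.120), Mei1 at 108, 108 and 144 CPM against 82.2 to 107 CPM (0.38 ± 0.16 SE, adjusted p = 0.142), and Prdm9 at 268, 199 and 255 CPM, around the Control values.

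**Figure D3:**
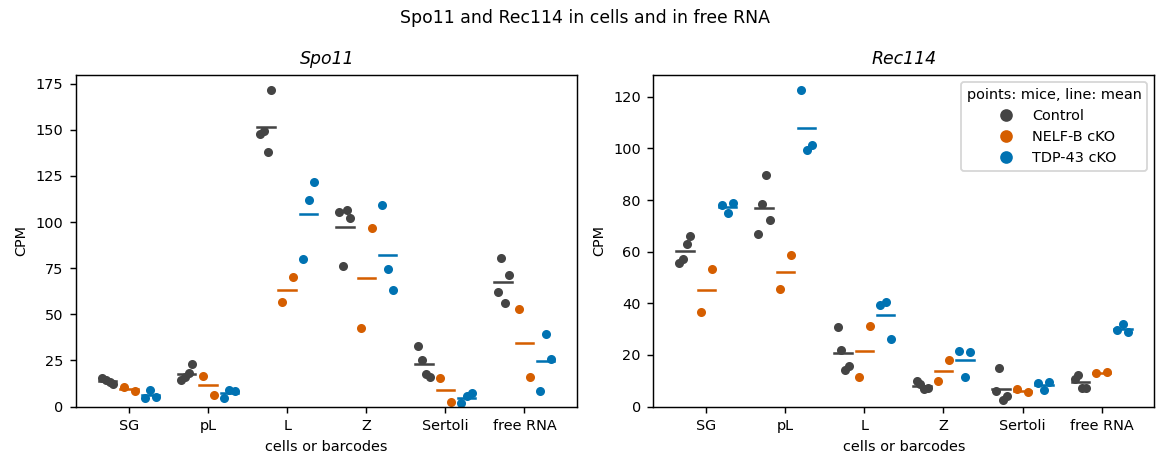
Level of Spo11 and Rec114 (CPM, linear axis from 0) in SG, pL, L and Z, in Sertoli-like cells and in free RNA, with 1 point per mouse and a line at the mean of each genotype. Spo11 in free RNA is highest in Control (56.3 to 80.4 CPM), and Rec114 in free RNA is highest in the TDP-43 cKO (28.9 to 31.8 CPM).

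The study summed SG, pL, L and Z cells of a mouse, and the members were tested on that sum as well. Spo11 was the only member called in the NELF-B cKO (1 of 7, beside 0.341% of all 19629 genes), and Spo11 and Rec114 were called in the TDP-43 cKO (2 of 7, beside 6.46%). Spo11 stood at 38.3, 35.8, 37.5 and 49.0 CPM in Control, at 17.5 and 19.6 CPM in the NELF-B cKO and at 15.2, 21.9 and 19.8 CPM in the TDP-43 cKO. All 5 cKO mice lay far under the 4 Control mice. The level was 2.21-fold lower in the NELF-B cKO (log2 fold change -1.14 ± 0.18 SE, adjusted p = 0.0445) and 2.06-fold lower in the TDP-43 cKO (-1.04 ± 0.15 SE, adjusted p = 0.0308). The first call was kept in 8 of 17 alternatives (adjusted p 2.02e-06 to 0.395) and was lost without Control replicate 1 (0.0687), 2 (0.0840), 3 (0.100) or 4 (0.132). The second was kept in 8 of 18 (8.53e-07 to 0.165) and was lost without any 1 of the 7 mice (0.0613 to 0.102).

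Rec114 in the sum stood at 82.9, 70.5 and 72.3 CPM in the TDP-43 cKO, above the 48.6, 46.6, 56.9 and 47.7 CPM of Control (1.55-fold higher, log2 fold change 0.63 ± 0.13 SE, adjusted p = 0.0414). This call was kept in 8 of 18 alternatives (0.000516 to 0.170) and was lost without any 1 of the 7 mice (0.0637 to 0.149). In the NELF-B cKO it stood at 36.1 and 49.9 CPM (-0.24 ± 0.15 SE, adjusted p = 0.433). Members that did not pass in the sum included Mei1, at 108 and 65.9 CPM in the NELF-B cKO against 51.5 to 63.7 CPM in Control (0.59 ± 0.18 SE, adjusted p = 0.126), and Ankrd31, at 201 and 181 CPM against 194 to 290 CPM (-0.47 ± 0.14 SE, adjusted p = 0.121). DESeq2 called both Mei1 (log2 fold change 0.59, adjusted p = 0.0326) and Ankrd31 (-0.47, adjusted p = 0.0242).

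Marker lists moved in the same sums. In the TDP-43 cKO the 6 diplotene markers summed to 103 to 133 CPM against 208 to 302 CPM in Control, with 3 of 6 called lower, the 7 round spermatid markers to 16.0 to 34.0 CPM against 48.3 to 179 CPM, with 2 of 7 called lower, and the 6 P markers to 209 to 377 CPM against 573 to 751 CPM, with 3 of 6 called lower. The 10 SG markers summed to 1479 to 1686 CPM against 1032 to 1326 CPM, with 2 of 10 called higher, and of the 6 pL markers tested Mcm5 and Rhox13 were called higher and Rec8 lower. Ccnb3 of the L list was called higher and Meiob of the Z list lower. In the NELF-B cKO the 6 Leydig cell markers summed to 75.1 and 93.5 CPM against 13.8 to 25.9 CPM, with none called, the P markers to 449 and 270 CPM and the SG markers to 1478 and 1765 CPM, with none called, and Tex101 of the L list and Emc7 of the Z list were called lower. The 6 L markers together summed to 1087 and 1014 CPM against 1386 to 1898 CPM in Control. The 5 macrophage markers summed to 14.4 and 9.93 CPM against 1.24 to 4.89 CPM, with none of 4 tested called. No marker of these lists was at 0, and their part in the calls of the sum was not tested.

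**Figure D4:**
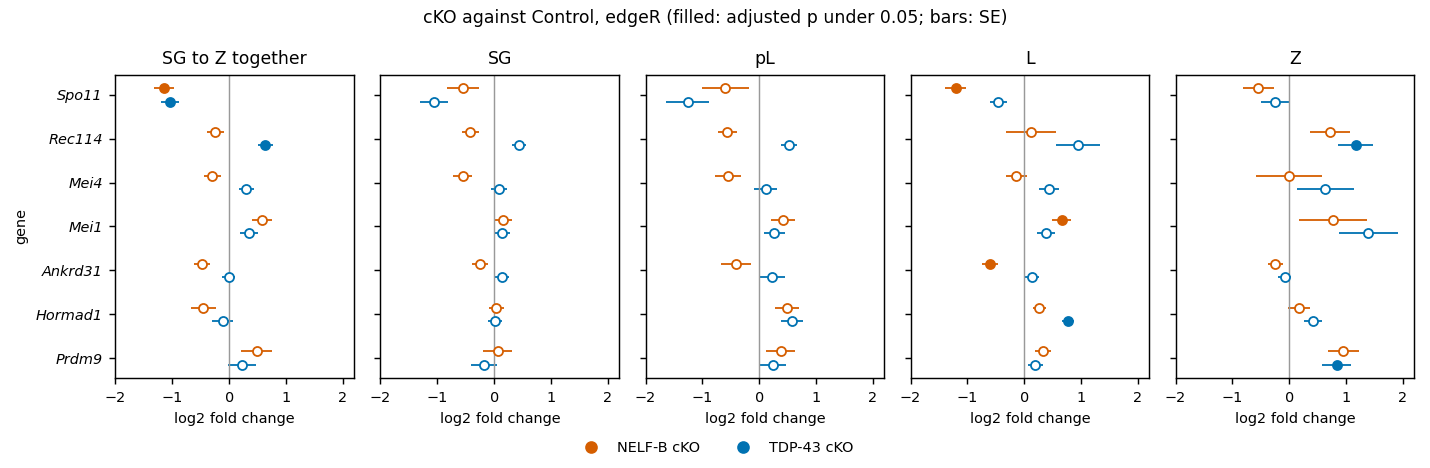
Log2 fold change of each gene in NELF-B cKO and TDP-43 cKO against Control, in the sum of SG to Z cells and in SG, pL, L and Z, with bars for 1 SE and filled points for an edgeR adjusted p under 0.05. Spo11 lies left of 0 in every panel for both cKO, and Rec114 lies right of 0 in every panel for the TDP-43 cKO.

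The sum depends on the mix of stages, which differed between genotypes. Among the cells kept, Z cells gave 17.0% to 29.1% of the SG to Z UMIs of a Control mouse, but 7.04% and 9.99% in the NELF-B cKO and 4.90%, 13.8% and 15.0% in the TDP-43 cKO. With every stage held at its Control mean, the mix alone would set Spo11 at 0.724 times its Control level in the NELF-B cKO and 0.772 times in the TDP-43 cKO, where 0.462 and 0.472 times were observed. For Hormad1 the mix alone gives 0.615 and 0.671 times, and the observed levels were higher, at 0.744 and 0.898 times. For Rec114 it gives 1.16 and 1.12 times, with 0.862 and 1.51 times observed. Mouse by mouse, the observed Spo11 level was 0.53 to 0.69 times that given by the mix alone in the 5 cKO mice and 0.87 to 1.06 times in the 4 Control mice. The Control ratios lie around 1 by construction, because the stage means come from the same Control mice. The calculation also treats each stage as alike in all mice, although marker levels within stages differed between genotypes. The part of the mix in these levels was not tested.

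**Figure D5:**
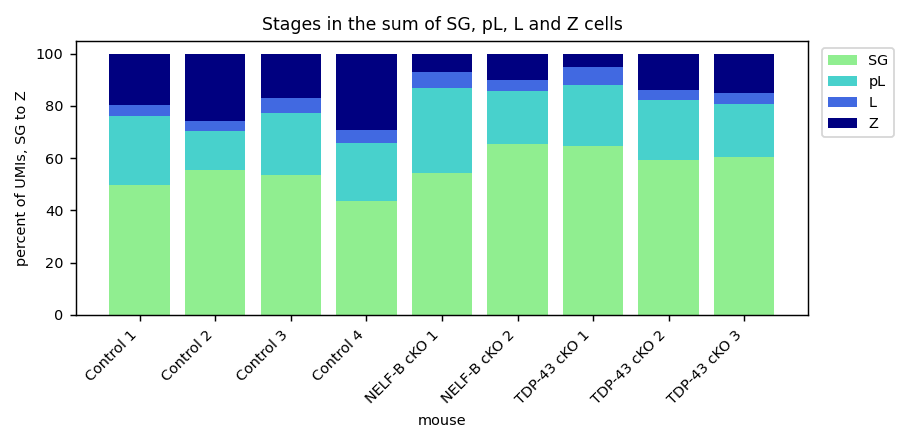
Share of the UMIs of SG to Z cells that came from each stage (percent of UMIs, stacked to 100) in each of the 9 mice. The Z share is 17.0% to 29.1% in the Control mice and 4.90% to 15.0% in the cKO mice.

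The 2 cKO were also set against each other, with log2 fold changes as TDP-43 cKO minus NELF-B cKO. In the sum of SG to Z cells edgeR called 0 of 7 members, beside 0.255% of all genes, while 3 members had an unadjusted p under 0.05 and DESeq2 called 2 (Rec114 and Mei4). Spo11 differed little there, by 0.10 ± 0.18 SE. Rec114 was higher in the TDP-43 cKO by 0.88 ± 0.16 SE (adjusted p = 0.0655), with 82.9, 70.5 and 72.3 CPM against 36.1 and 49.9 CPM. Within stages, the direct test called 1 of 7 members in pL, beside 2.76% of all genes, and 3 of 7 in L, beside 5.13%, all higher in the TDP-43 cKO. Rec114 in pL differed by 1.08 ± 0.17 SE (edgeR adjusted p = 0.0157), and 12 of 15 alternatives kept that call, which was lost without NELF-B cKO replicate 1 (0.0989). Ankrd31 in L differed by 0.74 ± 0.15 SE (adjusted p = 0.0170), and 10 of 15 alternatives kept the call, which was lost without NELF-B cKO replicate 1 (0.166) or TDP-43 cKO replicate 2 (0.0514) or 3 (0.0512). Hormad1 in L differed by 0.51 ± 0.12 SE (adjusted p = 0.0380) and Spo11 in L by 0.75 ± 0.20 SE (adjusted p = 0.0479). These were kept in 7 and 5 of 15 alternatives, and both were lost without any 1 of the 5 cKO mice (0.0589 to 0.220 for Hormad1, 0.0547 to 0.334 for Spo11). Stage markers differed between the 2 cKO in the same clusters. In L the 6 L markers summed to 5256 to 5635 CPM in the TDP-43 cKO against 2994 and 4000 CPM in the NELF-B cKO, with Brca2 and Tex101 called higher, and the 7 Z markers to 9960 to 10042 CPM against 8113 and 8696 CPM, with Emc7 and Sycp1 called higher. In pL the L markers summed to 2260 to 3325 CPM against 1676 and 1684 CPM, with Tex101 called higher, and Rec8, a pL marker, and Aurka, a diplotene marker, were called lower. In L, Aurka was called lower and Cntd1, a P marker, higher. Leydig cell markers in L summed to 13.5 to 38.3 CPM in the TDP-43 cKO against 100.1 and 88.3 CPM in the NELF-B cKO, with none of 4 tested called. The part of these markers in these differences was not tested. Neither SG (0 of 7, beside 0.221%, with 3 at an unadjusted p under 0.05) nor Z (0 of 7, beside 1.85%, with 0) held an edgeR call.

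Partners of the members were followed from 3 lists: 5 SPO11 partners and feedback genes, 7 PRDM9 partners and readers of its histone mark, and 6 genes that process break ends. All 18 passed the filter in each comparison. Alternatives are given for the members only, so whether calls of partners, here and below, hold under them is not shown. In L of the NELF-B cKO, Atm, Ewsr1 and Nbn were called higher (3 of 18, beside 7.55% of all genes). Atm, the kinase that limits the number of breaks, stood at 280 and 212 CPM against 174, 143, 162 and 174 CPM in Control (log2 fold change 0.67 ± 0.17 SE, adjusted p = 0.0354). Nbn, a subunit of the complex that trims break ends, stood at 88.6 and 74.0 CPM against 34.3 to 50.1 CPM (0.97 ± 0.24 SE, adjusted p = 0.0300). In Z only Zcwpw2, a relative of the PRDM9 mark reader ZCWPW1, was called (0.56 ± 0.14 SE, adjusted p = 0.0273), 1 of 18 where 8.7% of all genes were called. In SG, pL, P and the sum none was, beside 0.0331%, 0.443%, 0.52% and 0.341%. In the same Z cells the 6 Leydig cell markers summed to 271 and 111 CPM against 14.2 to 25.3 CPM in Control, with 4 of 5 tested called higher and none at 0 UMIs. The 6 P markers summed to 1333 and 814 CPM against 1336 to 1897 CPM, with Piwil1 and Cntd1 called lower, and among the 6 L markers Brca2 and Ccnb3 were called higher and Tex101 lower. The part of these lists in the Z values was not tested.

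In the TDP-43 cKO 2 of 18 partners were called in L (beside 9.02% of all genes), 3 of 18 in Z (beside 18.3%) and 2 of 18 in the sum (beside 6.46%), and in L and Z these shares lie near the background. Atm rose in both L and Z. In L it stood at 352, 270 and 351 CPM, above all Control mice (log2 fold change 1.10 ± 0.16 SE, adjusted p = 0.0124), and in Z at 54.6, 37.6 and 43.2 CPM against 17.5 to 29.1 CPM (1.10 ± 0.21 SE, adjusted p = 0.00472). Ccdc36, which encodes IHO1, rose in Z at 34.7, 23.5 and 22.3 CPM against 13.2 to 18.6 CPM (0.72 ± 0.22 SE, adjusted p = 0.0423). Cdyl fell in L (-1.33 ± 0.36 SE, adjusted p = 0.0396) and Rad50 in Z (-0.44 ± 0.14 SE, adjusted p = 0.0479). In the sum, Exo1 (0.41 ± 0.07 SE, adjusted p = 0.0327) and Mre11a (0.29 ± 0.06 SE, adjusted p = 0.0432) rose, both nucleases of break ends. Gm960, the Top6bl gene whose product pairs with SPO11, stood at 236, 238, 234 and 225 CPM in L of Control, at 143 and 187 CPM in the NELF-B cKO and at 222, 243 and 247 CPM in the TDP-43 cKO, and was called between the 2 cKO (0.57 ± 0.14 SE, adjusted p = 0.0393) but against Control in neither. Also called between the cKO were Zcwpw1 in L (0.61 ± 0.15 SE, adjusted p = 0.0386), Mre11a in L (0.93 ± 0.21 SE, adjusted p = 0.0275) and Dna2, a nuclease of break ends, in pL (-1.01 ± 0.19 SE, adjusted p = 0.0257), so that 3 of 18 partners were called in L (beside 5.13%) and 1 of 18 in pL (beside 2.76%). Hormad2 and Trip13, which act with HORMAD1, were called in no comparison.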

How the data were processed

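Testes of 9 mice were profiled by 10x Genomics 3′ v3.1 libraries. The authors deposited UMI counts per gene and barcode for each library, not normalized. Cell Ranger 6.1.1 was used for base calling and demultiplexing and Cell Ranger 7.0.0 for mapping to mm10, per the study's methods, with Seurat 4.2.0 and DESeq2 1.36 for later steps, per the submitters' processing notes. The headers of the count files name Cell Ranger 4 instead of 7.0.0, and this difference is not settled. Whether intronic reads were counted is not given in the sources used here, and it would raise levels of genes with long introns.

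A barcode was retained when it held over 1000 genes and less than 10% of its UMIs were mitochondrial (37.5% to 78.3% of the UMIs of a library). Cells were integrated and clustered with Seurat 5.3.0 (SCT, 40 components, resolution 0.8), and a cluster took the stage of its highest marker score. A name also needed 3 markers at 2-fold, a score of 1, a median of 2000 UMIs and no more than 80% of cells from 1 mouse, and the last 3 limits were set after the clusters were seen. A cluster of 535 cells that scored highest for SG passed these limits but was left unnamed for leading genes of red cells. Another of 311 cells that scored highest for Sertoli cells was left unnamed as holding few UMIs for its mouse. Members were left out of markers and integration. Called doublets (444, 0.984% of cells) were kept in the results and left out in an alternative. Germ cells of a cKO mouse that held any transcript of its deleted gene were removed. Counts were summed per mouse and stage, with at least 10 cells, and tested over all groups together by edgeR 4.0.16 (TMM, quasi-likelihood, R 4.3.3). A level is CPM of the summed UMIs, which for 3′ counts is not compared between genes. Spread is given over mice, and intervals of counting error are not given. Low levels in few kept cells, such as the 38 Z cells of TDP-43 cKO replicate 1, rest on few UMIs.

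On simulated counts for the real genes, the L comparison of the NELF-B cKO recovered 34% of 2-fold and 78.5% of 4-fold changes among 9178 genes, and that of the TDP-43 cKO 38.5% and 81.5%. Members and lists were chosen with earlier results of these data known. The genes named are the 7 members, list members that passed, and the 3 genes most like each member. Alternatives covered normalization, DESeq2 1.42.0, filter, thinning to 5000 UMIs, cell removal, clusters without integration (scanpy 1.11.5), the replicate block, samples fitted and each mouse left out, and 2 (without called doublets, without the weaker pL cluster) were chosen after seeing the data.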

Additional observations from a re-analysis of the deposited data

Results flagged for a closer look

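Of 63 groups of 4 Control mice examined, 1 mouse stood apart from the other 3 in 5 groups, where chance gives about 1 in 20. Spo11 in Z was lowest in Control replicate 2 at 75.9 CPM, against 102 to 106 CPM in the others. Mei4 in SG was lowest in replicate 1 at 31.8 CPM, against 48.8 to 50.1 CPM. Mei1 in pL was lowest in replicate 1 at 101 CPM, against 151 to 162 CPM, and in L lowest in replicate 2 at 82.2 CPM, against 103 to 107 CPM. Mei4 in Sertoli-like cells was highest in 1 mouse at 7.72 CPM.

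The effects of the 2 cKO, each against the same Control mice, differed by the direct test for 4 members, as log2 fold changes of TDP-43 cKO minus NELF-B cKO. The difference was 1.08 for Rec114 in pL, where values were 123, 99.4 and 101 CPM against 45.4 and 58.9 CPM. In L it was 0.75 for Spo11, 0.74 for Ankrd31 and 0.51 for Hormad1. The groups did not overlap for any of the 4, which adds no support, since the same values picked them. Overlap was also absent for members that were not called, as it was for 5 of 7 members in L and 3 of 7 in pL. The share of all genes without overlap is not given.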

How the results depend on the processing

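Of 1480 log2 fold changes recomputed under alternatives, 1282 kept their direction and side of the threshold, 99 lost and 36 gained the call, and 63 changed sign. Of 49 Control levels of a member in a stage, 24 moved by less than 1 SD between mice in clusters made without integration and 30 in thinned cells. Cells per stage and 2 or 3 cKO mice limit what single stages can show. The cause of the changes below was not tested.

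In the sum of SG to Z cells, the NELF-B cKO count of 1 called member became 0 at the threshold of the study (adjusted p below 0.01, log2 fold change of 1 or more in size), 0 without a filter, 3 by DESeq2, 0 with only the groups compared, 0 without integration, 0 without called doublets, 2 with removal in Control too, and 0 to 2 with a mouse left out. The TDP-43 cKO count of 2 became 0 at the study threshold, 0 without integration, 0 with removal in Control too and 0 with any mouse left out. In these counts the study threshold was applied to edgeR's values. The study applied it to DESeq2 with shrunken log2 fold changes, which was not repeated here. By that procedure the paper reports Spo11 as lower in both cKO. Between the cKO, the count of 0 became 2 by DESeq2 and 0 to 2 with a mouse left out. Over single stages, the NELF-B cKO count of 3 became 1 at the study threshold, 5 without a filter, 0 without integration, 6 without the weaker pL cluster and 1 to 3 with a mouse left out. That of the TDP-43 cKO (3) became 0 at the study threshold, 5 without a filter, 7 by DESeq2, 8 with only the groups compared, 5 with no cell removed, 1 without integration, 5 without the weaker pL cluster and 1 to 2 with a mouse left out. The 5 calls with no cell removed did not include Rec114 or Prdm9 in Z, which were lost in that setting. The replicate block gave 0 called members in each of these counts. The share of all genes called under each setting is not given here. A change in a count is therefore not read as a result about the members. The labels do not say whether replicate numbers pair the mice. Deviations of same-numbered mice correlated at 0.380 and 0.332 between Control and NELF-B cKO. They correlated at -0.182, -0.0837 and -0.0065 between Control and TDP-43 cKO and at -0.403 and -0.264 between the cKO. With 2 NELF-B cKO mice, the deviations from their mean mirror each other, so these values cannot decide on pairing.

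None of the log2 fold changes that changed sign had passed the test except that of Prdm9 in Z. With removal in Control too, Rec114 in the NELF-B sum was 0.020, and in the TDP-43 sum Ankrd31 was 0.21, Hormad1 0.62 and Prdm9 -0.10. With no cell removed Prdm9 in the TDP-43 sum was -0.10 and Ankrd31 0.012, and Prdm9 in NELF-B P -0.019. With no filter Ankrd31 in the TDP-43 sum was 0.0012 and Prdm9 in NELF-B P -0.028. With only the groups compared Mei4 in NELF-B Z was 0.014, and without called doublets 0.027. With the replicate block, Rec114 in NELF-B L was -0.26, Mei1 in NELF-B P 0.056, Ankrd31 in the TDP-43 sum 0.050 and Hormad1 in TDP-43 SG -0.016. Thinned, NELF-B L gave -0.40 for Rec114 and 0.10 for Mei4, and the TDP-43 sum 0.10 for Hormad1 and 0.018 for Ankrd31. Without integration, Rec114 in NELF-B L was -0.43, Spo11 in P 0.059, Mei1 in P 0.047 and Prdm9 in P -0.016, and in the TDP-43 cKO Ankrd31 was 0.0038 and Hormad1 0.064 in the sum, Mei4 was -0.14 and Mei1 -0.013 in pL, Prdm9 -0.043 in L, and Mei4 -0.99, Mei1 -0.30 and Prdm9 -0.43 in Z. With a mouse left out, the NELF-B cKO ranges that crossed 0 were -0.026 to 0.85 for Prdm9 in the sum, -0.077 to 0.41 for Mei1, -0.13 to 0.24 for Hormad1 and -0.39 to 0.47 for Prdm9 in SG, -0.012 to 0.61 for Prdm9 in pL, -0.64 to 0.69 for Rec114 in L, -0.013 to 1.20 for Mei1, -0.73 to 0.53 for Mei4 and -0.011 to 0.31 for Hormad1 in Z, and -0.67 to 0.22 for Spo11, -0.43 to 0.16 for Mei1, -0.0049 to 0.35 for Hormad1 and -0.68 to 0.63 for Prdm9 in P. For the TDP-43 cKO these were -0.048 to 0.37 for Prdm9, -0.12 to 0.040 for Ankrd31 and -0.23 to 0.046 for Hormad1 in the sum, -0.028 to 0.15 for Mei4 and -0.059 to 0.082 for Hormad1 in SG and -0.0078 to 0.37 for Prdm9 in pL, and between the cKO in the sum -0.018 to 0.22 for Spo11, -0.53 to 0.15 for Mei1 and -0.62 to 0.25 for Prdm9.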
